A study of Homo sapiens with 9 samples.

Results

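The comparison is Wnt3a against vehicle in TC32 cells, an established Ewing sarcoma cell line. TC32 carries EWSR1-FLI1, the fusion oncogene typical of this tumour. It rests on 6 of the 9 RNA-seq libraries of the series, 3 of vehicle and 3 of Wnt3a, chosen by their titles. Vehicle cells received PBS for 4 h and then DMSO for 24 h. Wnt3a cells received the ligand for 4 h followed by DMSO for 24 h, and the design text counts the exposure to Wnt3a as 28 h. Both groups were grown in RPMI with 10% serum, and polyadenylated RNA was sequenced from stranded libraries. The dose of Wnt3a is not given in the sources used here. The other 3 libraries received a TGF-β receptor inhibitor on top of Wnt3a and were left out. A single cell line was used, and the sources do not say whether replicates were separate cultures. The p-values therefore describe library-to-library spread, of which part or all may be technical.

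Wnt3a is a secreted, lipid-modified ligand that binds a Frizzled receptor together with the co-receptor LRP5 or LRP6. Binding disables the cytoplasmic complex of AXIN, APC and GSK3 that otherwise marks β-catenin for degradation, and β-catenin then enters the nucleus and activates genes through TCF and LEF proteins. Several of the genes switched on in this way encode inhibitors of the pathway, so their RNA is widely used as a readout of pathway activity. In Ewing sarcoma, Wnt and β-catenin activity has been linked to a more mesenchymal cell state, to the extracellular matrix and to genes that the fusion protein keeps low.

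Total expected counts ran from 34348339 to 38637007 in vehicle and from 36903919 to 42976799 in Wnt3a libraries, and 17524 of 58233 genes had enough counts to be tested. Mitochondrial RNA made up 4.04% to 4.87% of counts in all 6. The leading difference between libraries was not the treatment. The first principal component held 38.1% of the variance and put vehicle 1, vehicle 3 and Wnt3a 3 on one side and vehicle 2, Wnt3a 1 and Wnt3a 2 on the other. Levels below are counts per 1e6 counts of a library (CPM) scaled by TMM factors, and libraries are written as vehicle 1 to 3 and Wnt3a 1 to 3. EGR1, an immediate-early transcription factor, was at 111, 39.6 and 125 CPM in vehicle and 24.3, 31.6 and 97.0 in Wnt3a. ETV5, a factor induced by growth factor signalling, was at 23.2, 5.58 and 26.3 against 4.90, 4.31 and 18.2 CPM, and PAX7, a developmental factor, at 45.1, 6.28 and 48.2 against 13.0, 5.92 and 46.4 CPM. In each of these 3 genes, vehicle 2, Wnt3a 1 and Wnt3a 2 were the low libraries. GOLGA8A had the opposite pattern, with 22.3, 63.2 and 20.1 CPM in vehicle and 69.8, 101 and 17.6 CPM in Wnt3a. The sets were read from these data and no label names them. They hold unequal numbers of the groups. Their part in each result below was measured as the fold change within each set and in a fit with the set as a block. That fit was chosen after seeing the data. DKK1, COL1A2, CXCL14 and POSTN are among the genes that lead the component, so their block fits are not independent of the sets.

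**Figure D1:**
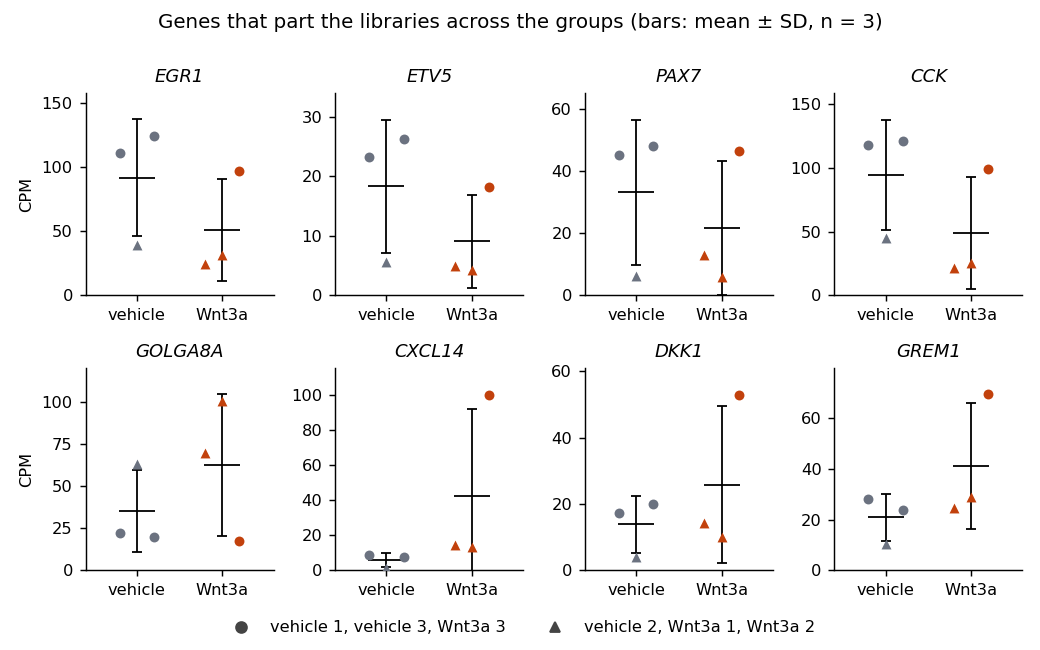
Level (CPM, linear axis from 0) of 8 genes in the 3 vehicle and 3 Wnt3a libraries. Circles are vehicle 1, vehicle 3 and Wnt3a 3, triangles are the other libraries, and bars give mean ± SD. In EGR1, ETV5, PAX7 and CCK the circles stand above the triangles in both groups, and in GOLGA8A below them. For CXCL14, DKK1 and GREM1 both shapes were higher with Wnt3a, although the groups as wholes overlapped for DKK1 and GREM1.

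Wnt3a raised the RNA of a small set of genes and lowered that of very few. With edgeR's quasi-likelihood test and Benjamini-Hochberg adjustment, 79 genes changed (0.451% of those tested) at an adjusted p under 0.05, of which 74 rose (0.422%) and 5 fell (0.0285%). Of the risen genes, 43 rose at least 2-fold (0.245%) and 20 at least 4-fold, and no gene fell 2-fold. All 79 had groups that did not overlap. Of all genes tested, 8.53% had every Wnt3a library above vehicle and 9.32% every Wnt3a library below. The 79 also had the same sign within both library sets, which groups without overlap fix in advance. With DESeq2 291 genes rose (1.66%) and 88 fell (0.502%), and with the library set as a block 528 rose (3.01%) and 184 fell (1.05%). Both fits called all 79. On the authors' TPM, which corrects for transcript length, limma-trend called 34 of the 79 and turned no sign. In RNA from whole cultures, a change per cell and a change in the share of cells cannot be told apart. Over all genes tested the median log2 fold change was -0.005. An unadjusted p under 0.05 was reached by 1746 of the 17524 genes tested, the background for such counts in the lists below. How many calls remained with a library left out depended on which library it was. WIF1, AXIN2, KRT81 and TSHZ1 were called whichever library was left out, and the others were lost without at least 1. Of the 79, 4 were called without vehicle 1, 40 without vehicle 2, 6 without vehicle 3, 5 without Wnt3a 1, 11 without Wnt3a 2 and 50 without Wnt3a 3. No sign changed in these fits, which groups without overlap nearly fix in advance. For the genes below, the largest adjusted p over these 6 fits is given where the call was lost.

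**Figure D2:**
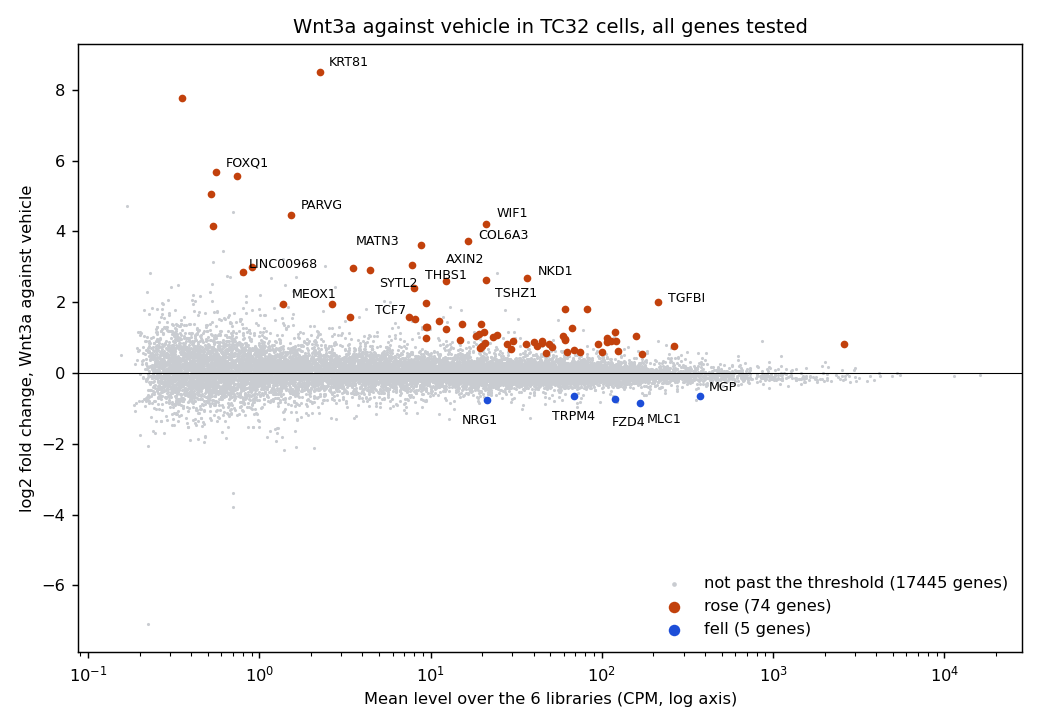
Log2 fold change (fitted by edgeR) against the mean level over the 6 libraries in CPM on a log axis, 1 dot per gene tested. Orange dots are the 74 genes that rose and blue dots the 5 that fell. The fitted change of genes with few or no vehicle counts, at the upper left, depends on the prior count and is no measured fold.

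Promoters were read for motifs because TCF and LEF proteins bind DNA at a known short sequence. A promoter here is the stretch from 250 bases before to 50 after the gene start of RefSeq on GRCh38.p14. The 4 motifs searched on both strands were CTTTGAT, its variant CTTTGAA, the form CTTTGTT and lastly CTTTGTA. They differ only in their closing letters, so 1 position holds at most 1 of them. Of the 79 called genes, 53 were matched to that table, 50 of them risen. AXIN2, NKD1, FZD7, TSHZ1, KRT81 and BMP7 are among the risen genes that were not matched, so their promoters were not read. At least 1 motif lay in 3 of the 50 matched (6.0%), against 1017 of 11818 promoters of tested genes (8.61%) and 3802 of all 27305 (13.9%). The 3 were TGFB2, TGFBR1 and PARVG, 2 of which belong to the TGF-β pathway. They are printed below 5′ to 3′ with the motif in capitals, followed by WIF1, the risen gene with the smallest p, whose window holds none of these letters.
TGFB2 chr1:218345086-218345385 (plus strand): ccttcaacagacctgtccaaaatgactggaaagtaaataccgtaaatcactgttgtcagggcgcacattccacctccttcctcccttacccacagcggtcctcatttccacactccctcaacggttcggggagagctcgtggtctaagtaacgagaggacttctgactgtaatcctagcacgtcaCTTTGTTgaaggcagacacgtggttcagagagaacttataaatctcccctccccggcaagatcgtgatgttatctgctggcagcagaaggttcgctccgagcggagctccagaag
TGFBR1 chr9:99104863-99105162 (plus strand): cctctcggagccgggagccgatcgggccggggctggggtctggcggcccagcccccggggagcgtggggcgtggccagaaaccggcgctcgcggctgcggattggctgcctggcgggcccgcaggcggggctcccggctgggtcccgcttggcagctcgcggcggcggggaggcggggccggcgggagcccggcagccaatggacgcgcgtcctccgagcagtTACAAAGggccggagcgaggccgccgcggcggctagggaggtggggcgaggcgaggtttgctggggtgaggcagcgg
PARVG chr22:44172701-44173000 (plus strand): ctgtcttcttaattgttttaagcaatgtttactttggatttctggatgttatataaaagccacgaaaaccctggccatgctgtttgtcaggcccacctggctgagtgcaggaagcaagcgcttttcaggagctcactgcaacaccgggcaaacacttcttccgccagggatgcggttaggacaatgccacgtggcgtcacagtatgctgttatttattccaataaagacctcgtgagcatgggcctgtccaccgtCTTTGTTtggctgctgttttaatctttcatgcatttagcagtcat
WIF1 chr12:65121256-65121555 (minus strand): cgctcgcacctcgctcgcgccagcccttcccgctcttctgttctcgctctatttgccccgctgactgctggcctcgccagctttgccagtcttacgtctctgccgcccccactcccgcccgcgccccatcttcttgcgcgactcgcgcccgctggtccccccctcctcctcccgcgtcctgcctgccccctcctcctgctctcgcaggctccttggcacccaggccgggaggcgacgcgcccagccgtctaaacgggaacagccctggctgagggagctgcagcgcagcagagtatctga
The motif starts 65 bases before the gene start in TGFB2 and 27 before it, on the opposite strand, in TGFBR1. In PARVG it lies 5 bases after the start. A match describes the letters of the window, and binding was not measured.

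Among the inhibitors that act inside the cell or at its membrane, AXIN2 and NKD1 rose strongly. AXIN2, the inducible scaffold of the β-catenin destruction complex (chr17:65528563-65561647, hg38), was at 3.34, 3.24 and 3.89 CPM in vehicle and 18.8, 24.3 and 20.3 CPM in Wnt3a. The lowest Wnt3a library stood far above the highest vehicle library. The log2 fold change was 2.60 (SE 0.154, adjusted p = 0.00145), with 2.46 and 2.69 within the library sets. NKD1, which binds Dishevelled (chr16:50548330-50649249), went from 7.81, 14.3 and 7.60 to 47.2, 83.4 and 59.5 CPM. Vehicle 2 was the highest vehicle library and Wnt3a 2 the highest Wnt3a library, and the groups did not overlap. Its log2 fold change was 2.67 (SE 0.301, adjusted p = 0.0186, up to 0.12 with a library left out). TNFRSF19, a receptor of the TNF family known as a β-catenin target, had 0 counts in vehicle and 87 in Wnt3a, at least 25.9-fold higher when 3 counts are set as the floor of the vehicle group (adjusted p = 0.045, up to 0.195).

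Most other feedback genes did not pass the test. Of 25 on the list, 20 were tested, 3 rose and 0 fell, and the median log2 fold change was 0.31. NKD2, the relative of NKD1, was at 5.31, 7.15 and 5.17 CPM in vehicle and 10.6, 15.8 and 15.5 in Wnt3a, without overlap. Its log2 fold change was 1.25 (SE 0.209, adjusted p = 0.0638, and 0.0094 with the library set as a block). APCDD1, an inhibitor at the cell surface, was at 1140, 915 and 1201 CPM against 725, 743 and 979, and the groups overlapped (adjusted p = 0.415). With the block the log2 fold change of APCDD1 was -0.29 (adjusted p = 0.040). ZNRF3, a ubiquitin ligase that removes Frizzled from the membrane, was at 17.1, 15.4 and 20.5 against 16.9, 18.3 and 21.4 CPM, and LGR5, a receptor for R-spondins, at 17.3, 23.8 and 17.8 against 22.5, 22.5 and 17.7 CPM. Both overlapped between the groups. RNF43, the partner of ZNRF3, had 0 counts in vehicle and 1 in Wnt3a. NOTUM, the enzyme that removes the lipid from Wnt ligands, had 0 and 2, so neither could be tested.

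Of the secreted antagonists, WIF1 gave the smallest p of all genes. WIF1, which binds Wnt ligands outside the cell (chr12:65050626-65121566), was at 2.60, 2.32 and 1.63 CPM in vehicle and 42.9, 46.1 and 31.1 CPM in Wnt3a. Its log2 fold change was 4.20 (SE 0.225, adjusted p = 0.0014), with 3.82 and 4.21 within the library sets and 4.03 to 4.36 with a library left out. FRZB, a decoy with a Frizzled-like domain, was already at 242, 217 and 247 CPM in vehicle and at 310, 313 and 348 CPM in Wnt3a. Its log2 fold change was 0.46 (SE 0.0885, adjusted p = 0.108, and 0.0026 with the library set as a block). DKK1, which blocks LRP5 and LRP6, followed the library sets. Its levels of 17.3, 4.12 and 20.2 CPM in vehicle and 14.4, 10.2 and 52.98 CPM in Wnt3a overlapped, and its adjusted p was 0.736. With the set as a block, which DKK1 itself helped to define, its log2 fold change was 1.53 (adjusted p = 0.00067). Of 16 antagonists on the list 10 were tested, 1 rose and 0 fell, with a median of 0.17.

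Ligands did not pass the test in either direction, whereas 2 Frizzled receptors changed in opposite directions. Of 26 ligands and agonists, 12 were tested, 0 rose, 0 fell and the median was -0.04, with 1 at an unadjusted p under 0.05 and 0 called by DESeq2. WNT3A itself had 8 counts over the vehicle libraries and 6 over the Wnt3a libraries. WNT5A, a ligand that mostly signals without β-catenin, was at 85.4, 65.5 and 81.0 CPM in vehicle and at 56.2, 64.5 and 81.3 in Wnt3a. FZD7 (chr2:202034587-202038445) rose from 10.8, 14.1 and 13.6 to 25.1, 30.7 and 29.7 CPM (log2 fold change 1.15, SE 0.14, adjusted p = 0.0207, up to 0.122). FZD4 (chr11:86945679-86955391) fell from 149, 132 and 167 to 97.4, 84.0 and 87.8 CPM (log2 fold change -0.73, SE 0.11, adjusted p = 0.0443, up to 0.213). These were edgeR's only calls among 18 receptors tested, where DESeq2 called 2 higher and 1 lower, and none of 25 tested transducers of the signal, such as the Dishevelled and destruction complex genes, was called by edgeR (median 0.06, with 2 at an unadjusted p under 0.05 and 1 called by DESeq2).

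TCF7, a nuclear partner of β-catenin and itself a known target, was at 4.15, 2.78 and 4.47 CPM in vehicle and at 9.95, 14.3 and 20.7 CPM in Wnt3a. It rose with a log2 fold change of 1.98 (SE 0.299, adjusted p = 0.0443, up to 0.206), and its Wnt3a libraries spread widely. TCF7L2, a family member expressed in many tissues, was at 18.8, 21.7 and 18.3 against 16.6, 19.2 and 19.3 CPM (adjusted p = 0.846). LEF1 had 2 counts over the vehicle and 8 over the Wnt3a libraries, 6 of them in Wnt3a 3. SP5, a repressor induced by Wnt in many cells, had 0 and 8. Neither was tested. Of 17 TCF, LEF and β-catenin partner genes tested, 1 rose and 0 fell.

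Growth genes that are often named as β-catenin targets were not among the calls. Of 24 tested, 0 rose and 0 fell, and their median was -0.06. An unadjusted p under 0.05 was reached by 4, and DESeq2 called 1. MYC, a driver of cell growth, was at 345, 301 and 359 CPM in vehicle and at 233, 235 and 299 in Wnt3a, just below the vehicle range. Its log2 fold change was -0.39 (SE 0.122, adjusted p = 0.36, and 0.039 with the library set as a block). CCND1, the G1 cyclin, was at 2299, 1766 and 2425 against 1666, 1782 and 2468 CPM, and the groups overlapped (adjusted p = 0.854).

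**Figure D3:**
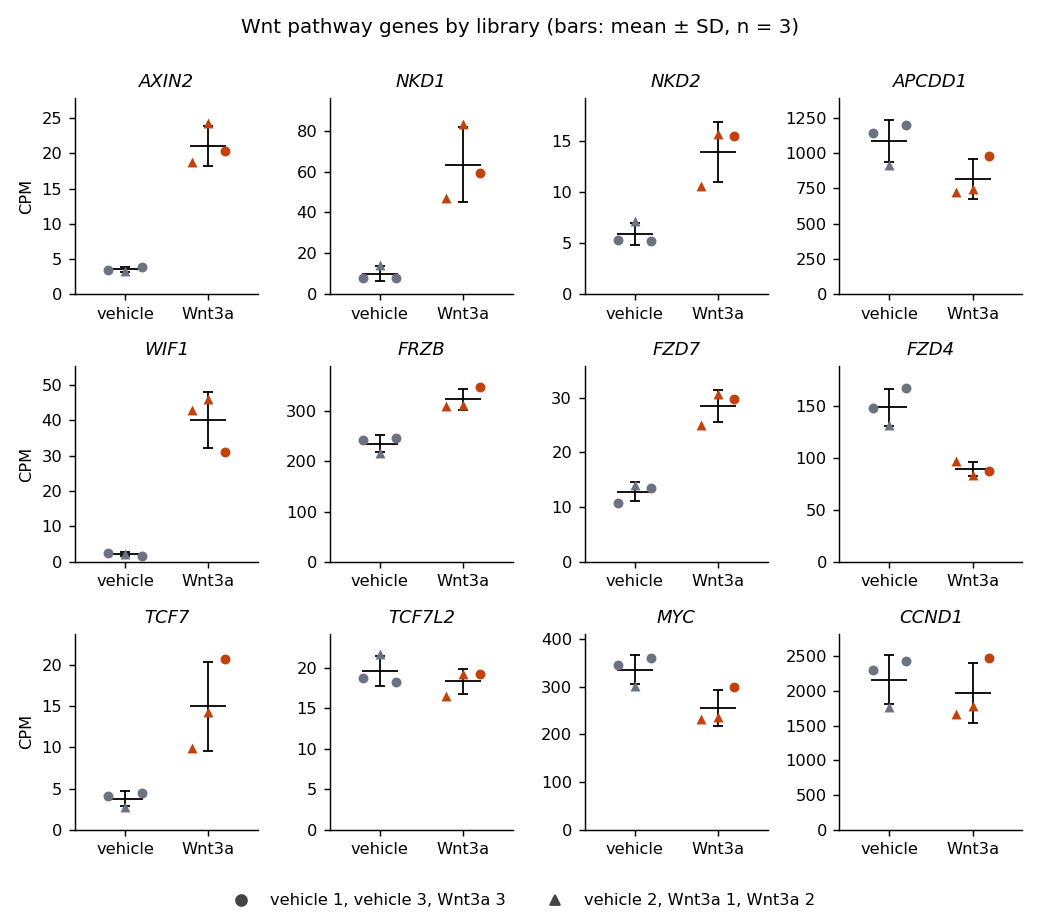
Level (CPM, linear axis from 0) of 12 Wnt pathway genes by library, with mean ± SD of 3 libraries. AXIN2, NKD1, WIF1, FZD7 and TCF7 were higher in every Wnt3a library than in any vehicle library, and FZD4 was lower. NKD2, FRZB and MYC did not overlap but missed the threshold of the main test.

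Several matrix genes rose, led by COL6A3 and MATN3. COL6A3, a chain of collagen VI (chr2:237324003-237414375), was at 2.33, 2.42 and 2.21 CPM in vehicle and at 44.4, 28.9 and 18.6 CPM in Wnt3a. The vehicle libraries were nearly equal and the Wnt3a libraries spread more than 2-fold. The log2 fold change was 3.72 (SE 0.318, adjusted p = 0.00781, and 0.0873 at most with a library left out). MATN3, a cartilage matrix protein (chr2:19992111-20012694), rose from 1.31, 0.823 and 1.82 to 16.6, 21.8 and 10.2 CPM, a log2 fold change of 3.62 (SE 0.372, adjusted p = 0.0159, up to 0.118). TGFBI, an adhesive matrix protein that TGF-β induces (chr5:136028895-136063818), also rose. Its levels were 98.9, 64.1 and 88.8 CPM in vehicle and 426, 258 and 332 CPM in Wnt3a (log2 fold change 2.01, SE 0.218, adjusted p = 0.0159, up to 0.0941). THBS1, thrombospondin, which activates latent TGF-β and restrains blood vessel growth, went from 1.82, 3.68 and 2.21 to 15.5, 12.4 and 12.7 CPM (log2 fold change 2.39, SE 0.27, adjusted p = 0.0186, up to 0.118).

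The fibrillar collagens described here did not pass the main test, and their levels differed between the library sets. COL1A1 was at 21.4, 45.4 and 20.4 CPM in vehicle and at 115, 86.4 and 45.9 CPM in Wnt3a. Vehicle 2 and Wnt3a 3 nearly met, and the adjusted p was 0.267. Within the sets the order was clear, and with the set as a block the log2 fold change was 1.14 (adjusted p = 0.00072). COL1A2 gave 9.63, 18.1 and 9.23 against 61.9, 43.8 and 20.4 CPM (adjusted p = 0.197, and 0.0021 with the block). COL3A1 gave 162, 211 and 150 against 367, 293 and 242 CPM (adjusted p = 0.176, and 0.0057 with the block). TNC, tenascin C, which EWSR1-FLI1 and Wnt have both been reported to control, was high throughout, at 658, 391 and 753 CPM in vehicle and 1200, 787 and 1376 in Wnt3a. Its groups did not overlap and its adjusted p was 0.341, or 0.0048 with the block. Of 30 collagen chains tested 1 rose and 0 fell with edgeR, while DESeq2 called 5 higher and 11 had an unadjusted p under 0.05. With the block 6 rose and 0 fell, against 3.01% and 1.05% of all genes. In 9 all Wnt3a libraries lay above vehicle and in 3 below (8.53% and 9.32% of all genes tested did). Their median was 0.31, but 0.03 and 0.21 within the library sets. Of 59 glycoproteins 3 rose and 1 fell (median 0.11), the latter being MGP. None of 25 proteoglycans or 46 remodelling enzymes and inhibitors passed with edgeR, against 1 and 5 with DESeq2 and 6 and 10 at an unadjusted p under 0.05. TGM2, a crosslinking enzyme of the latter list, came close at 2.03, 2.83 and 2.02 against 13.7, 7.25 and 6.80 CPM (adjusted p = 0.0505).

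In the TGF-β pathway 1 ligand, 1 receptor, 1 activator and 1 SMAD rose. TGFB2, a secreted ligand (chr1:218346235-218444619), was at 90.0, 81.3 and 81.1 CPM in vehicle and at 192, 136 and 148 in Wnt3a (log2 fold change 0.92, SE 0.133, adjusted p = 0.0397, up to 0.196). TGFBR1, the type I receptor kinase (chr9:99104038-99154192), rose from 15.1, 14.2 and 14.9 to 25.2, 21.7 and 25.3 CPM (log2 fold change 0.71, SE 0.107, adjusted p = 0.0443, up to 0.223). The promoters of both are printed above, and the motifs were no more frequent in the matched risen genes than in all tested genes. ITGB8, an integrin subunit that frees active TGF-β from its latent form, rose from 12.9, 10.3 and 13.6 to 24.6, 26.0 and 27.9 CPM (log2 fold change 1.09, adjusted p = 0.0207, up to 0.122). SMAD5, a signal transducer mainly of BMP receptors, rose from 64.5, 54.1 and 61.6 to 89.1, 90.8 and 89.2 CPM (log2 fold change 0.58, adjusted p = 0.0468, up to 0.218). The Wnt3a libraries were close to one another in SMAD5, TGFBR1 and ITGB8. In all, 4 of 34 genes of the pathway rose and 0 fell, while the list's median of 0.09 was near 0. Of 41 genes commonly induced by TGF-β, TGFBI and THBS1 rose, 0 fell, 14 had Wnt3a libraries all above vehicle (8.53% of all genes tested did) and the median was 0.25.

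Of the BMP genes, BMP7, a ligand (chr20:57168748-57266629), rose from 36.7, 44.2 and 44.6 to 82.5, 79.5 and 80.3 CPM. The spread within Wnt3a was small, and the log2 fold change was 0.95 (SE 0.0986, adjusted p = 0.0159, up to 0.0911). CHRDL1, a secreted BMP antagonist, had means of 24.1 CPM in vehicle and 13.8 CPM in Wnt3a, with an adjusted p of 0.084. Of the 22 BMP genes tested 2 rose and 0 fell with edgeR, DESeq2 called 3 higher and 1 lower, and the median was -0.11.

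**Figure D4:**
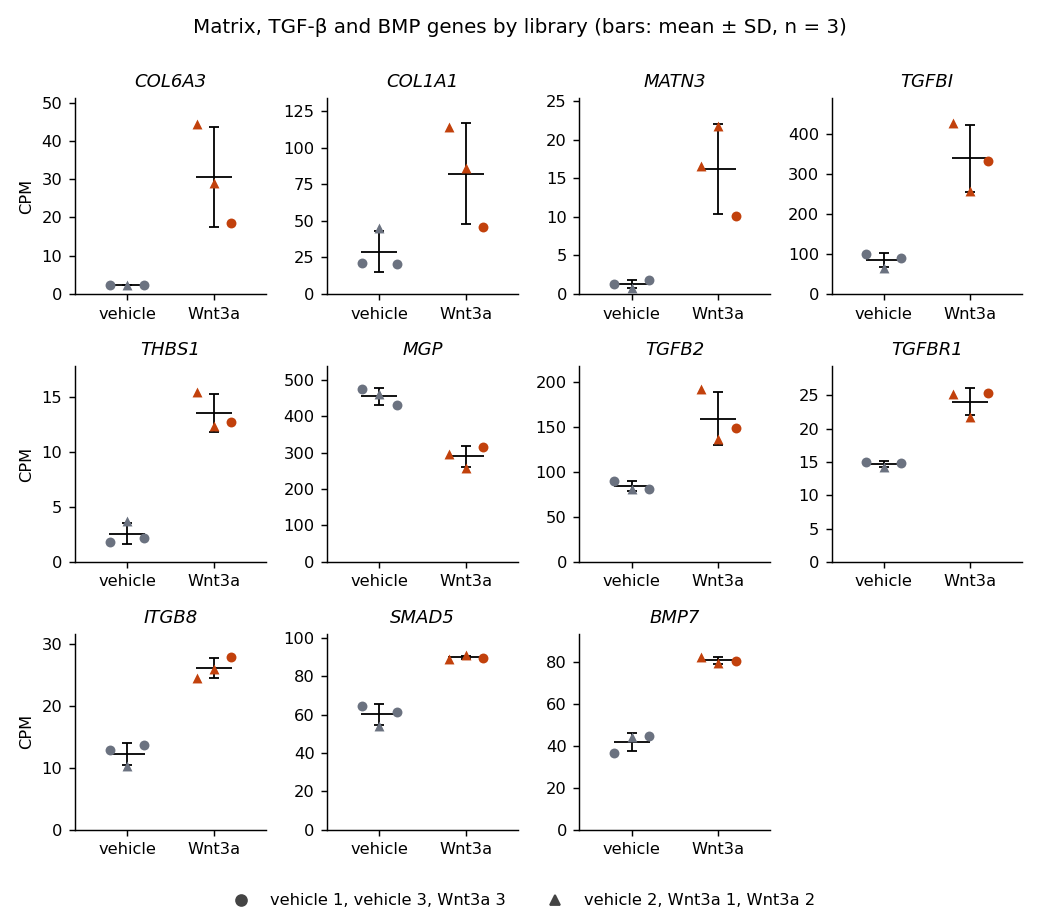
Level (CPM, linear axis from 0) of 11 matrix, TGF-β and BMP genes by library, with mean ± SD of 3 libraries. All Wnt3a points lie above all vehicle points except for MGP, where they lie below. COL1A1 in vehicle 2 (45.4 CPM) and Wnt3a 3 (45.9 CPM) nearly coincide.

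Transcription factors of mesenchymal and neural crest cells gave 4 rises and 0 falls among 32 tested (median 0.19). TSHZ1, a zinc finger factor of development (chr18:75210755-75289950), was at 5.85, 5.76 and 6.04 CPM in vehicle and at 27.9, 35.5 and 44.6 CPM in Wnt3a. With a log2 fold change of 2.61 (SE 0.179, adjusted p = 0.00233) it was called in every fit that left out a library. FOXQ1, a forkhead factor reported as a Wnt target in other tumours (chr6:1312440-1314748), had 2 counts over the vehicle libraries and 135 over the Wnt3a libraries, a depth-scaled ratio of 60.4 (exact 95% interval 16.4 to 504, counting error only). Its adjusted p was 0.0159, and 0.118 at most. RUNX2, the master factor of bone formation, rose from 0.179, 0.232 and 0.191 to 1.46, 2.14 and 1.23 CPM (log2 fold change 2.98, adjusted p = 0.0228, up to 0.178). FOXC1 rose from 14.9, 15.6 and 14.3 to 26.8, 23.3 and 25.7 CPM (log2 fold change 0.76, adjusted p = 0.0321, up to 0.203). MEOX1, a homeobox gene of the somites, rose from 0.597, 0.566 and 0.517 to 2.42, 2.38 and 1.76 CPM (log2 fold change 1.96, adjusted p = 0.0367, up to 0.203). Of 11 cartilage and bone genes tested, MATN3 and RUNX2 rose and 0 fell. SOX9, the cartilage factor, stayed between 0.639 and 1.52 CPM in all 6 libraries, and SP7 and SPP1 had too few counts to test.

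Genes reported as repressed by EWSR1-FLI1 had a higher median (0.50) than all genes tested (-0.005). Of 39 tested, THBS1, COL6A3 and CALD1 rose and 0 fell, 33 lay above 0, and 15 had Wnt3a libraries all above vehicle (8.53% of all genes tested did). The medians within the library sets were 0.44 and 0.67. With the set as a block 17 rose and 1 fell, against 3.01% and 1.05% of all genes. CALD1, an actin-binding protein of contractile cells, was at 202, 197 and 189 CPM in vehicle and at 383, 301 and 309 in Wnt3a (log2 fold change 0.76, SE 0.107, adjusted p = 0.0367, up to 0.203). Among 55 genes reported as activated by the fusion, 1 rose and 1, TRPM4, fell with edgeR, and the median was -0.13. DESeq2 called 3 of them higher and 3 lower, and with the block 5 rose and 6 fell. The median of the activated list within the sets was -0.07 and -0.05.

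The vessel growth lists had medians near 0, with members on both sides. None of 28 pro-angiogenic genes passed with edgeR (median 0.06), while 8 had an unadjusted p under 0.05 and DESeq2 called 1 higher and 3 lower. VEGFA, the main vessel growth factor, was at 35.3, 34.6 and 37.7 against 36.4, 46.4 and 32.9 CPM. ADM, adrenomedullin, had means of 16.7 CPM in vehicle (SD 2.86) and 9.22 CPM in Wnt3a (SD 1.604), with an adjusted p of 0.129. ANGPTL4, a secreted angiopoietin-like protein, was at 21.6, 30.2 and 21.8 against 13.3, 13.7 and 13.7 CPM (adjusted p = 0.0769). Both had groups that did not overlap and were called lower by DESeq2. Of 27 genes that restrain vessels, 1 rose with edgeR, THBS1, and 0 fell (median 0.02). In that list 8 had an unadjusted p under 0.05, and DESeq2 called 3 higher and 1 lower. NRP2, a co-receptor for VEGF and semaphorins, was at 1.07, 0.437 and 0.599 CPM in vehicle and 3.70, 2.54 and 4.49 in Wnt3a (log2 fold change 2.35, SE 0.39, adjusted p = 0.0621). Among 54 guidance genes ROBO2, a receptor for SLIT ligands, rose from 16.6, 13.9 and 15.2 to 26.5, 30.7 and 35.8 CPM (log2 fold change 1.02, adjusted p = 0.0297, up to 0.146), and 0 fell.

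Adhesion and growth factor lists gave few calls. ITGB8 was the only integrin of 18 called by edgeR, where DESeq2 called 2 higher and 2 lower. Among 40 contractile and actin-binding genes CALD1 and PARVG rose and 0 fell. PARVG, an adaptor at integrin adhesions that is typical of blood cells, rose from 0.209, 0.0772 and 0.109 to 3.33, 3.87 and 1.62 CPM (log2 fold change 4.47, SE 0.508, adjusted p = 0.0188, up to 0.122). TGFB2 was edgeR's only call among 23 genes commonly induced by YAP and TAZ, of which 21 lay above 0 (median 0.18) and DESeq2 called 2 higher. IGFBP5, which binds insulin-like growth factors, rose from 59.4, 80.2 and 65.9 to 124, 121 and 119 CPM (log2 fold change 0.82, adjusted p = 0.0367, up to 0.195), edgeR's only call among 17 genes of that axis, where DESeq2 called 3 higher. Of 32 cholesterol and fatty acid genes tested, 28 lay below 0, with a median of -0.13. With edgeR 1 of them rose and 0 fell, and DESeq2 called 1 higher and 3 lower. SYTL2, a vesicle transport protein, rose from 0.716, 0.798 and 1.61 to 9.24, 5.94 and 8.18 CPM (log2 fold change 2.90, adjusted p = 0.0207, up to 0.122).

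Proliferation, ribosome and stress lists held no call by edgeR. In S phase genes 0 of 39 passed (median -0.10, 1 at an unadjusted p under 0.05) and in G2 and mitosis genes 0 of 41 (median 0.02, 0 unadjusted), and DESeq2 called 0 in both. All 78 cytosolic ribosomal protein genes tested lay below 0, with a median of -0.15, and 42 had Wnt3a libraries all below vehicle (9.32% of all genes tested did), but 0 passed. At an unadjusted p under 0.05 there were 13, and DESeq2 called 1 lower. Their summed level was 87600 to 93700 CPM in vehicle and 76500 to 83600 CPM in Wnt3a. The immediate-early list had a median of -0.31 and 0 calls among 36, with 3 at an unadjusted p under 0.05 and 1 called lower by DESeq2. Within the library sets its median was 0.06 and 0.0. Hypoxia, unfolded protein, interferon and MHC class I lists had medians from -0.14 to -0.08 and no call by edgeR, with 9, 9, 6 and 4 members at an unadjusted p under 0.05 and 2, 0, 2 and 0 called by DESeq2.

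Markers of Ewing sarcoma cells were expressed in all 6 libraries, and those of endothelial cells and leukocytes were low. All 10 Ewing sarcoma markers were tested and 0 passed with edgeR (median -0.32), while 4 had an unadjusted p under 0.05 and DESeq2 called 1 lower. All 10 lay below 0, and 5 had Wnt3a libraries all below vehicle (9.32% of all genes tested did). Within the library sets the median was -0.17 and -0.2. PAX7, which followed those sets, is among these markers. CD99, the surface antigen used in diagnosis, was at 1250, 1158 and 1225 CPM in vehicle and at 1003, 883 and 1050 in Wnt3a, and NKX2-2 was at 110, 97.8 and 110 against 59.6, 78.2 and 90.4 CPM. Both were lower in every Wnt3a library without passing the test. Of 12 endothelial markers 4 were tested and their summed level was 3.60 to 5.28 CPM in vehicle and 4.34 to 4.55 in Wnt3a, with PLVAP at 0 counts in all libraries. Of 12 leukocyte markers 3 were tested, with a sum of 6.95 to 8.74 against 4.50 to 6.17 CPM and CD3D, CD3E and MS4A1 at 0. Most of that sum was CD79A, a B cell receptor component, at 5.58, 4.86 and 5.09 against 3.51, 2.38 and 3.69 CPM. Of the fibroblast markers most did not pass with edgeR and the summed levels overlapped between the groups. Of 13, 12 were tested and 1 rose (COL6A3), while DESeq2 called 5 higher and 7 had an unadjusted p under 0.05. In 7 all Wnt3a libraries lay above vehicle (8.53% of all genes tested did). With the library set as a block 6 rose, against 3.01% of all genes, and the medians within the sets were 0.55 and 0.81. The sum was 775, 1120 and 799 CPM in vehicle and 1500, 1270 and 1020 in Wnt3a. Within each library set the sum was higher in Wnt3a. None of these 12 was at 0, and LUM was at 16.6, 15.3 and 15.6 against 34.4, 25.5 and 25.4 CPM (adjusted p = 0.0635). These markers are also matrix genes of the lists above, and their part in those results was not tested.

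**Figure D5:**
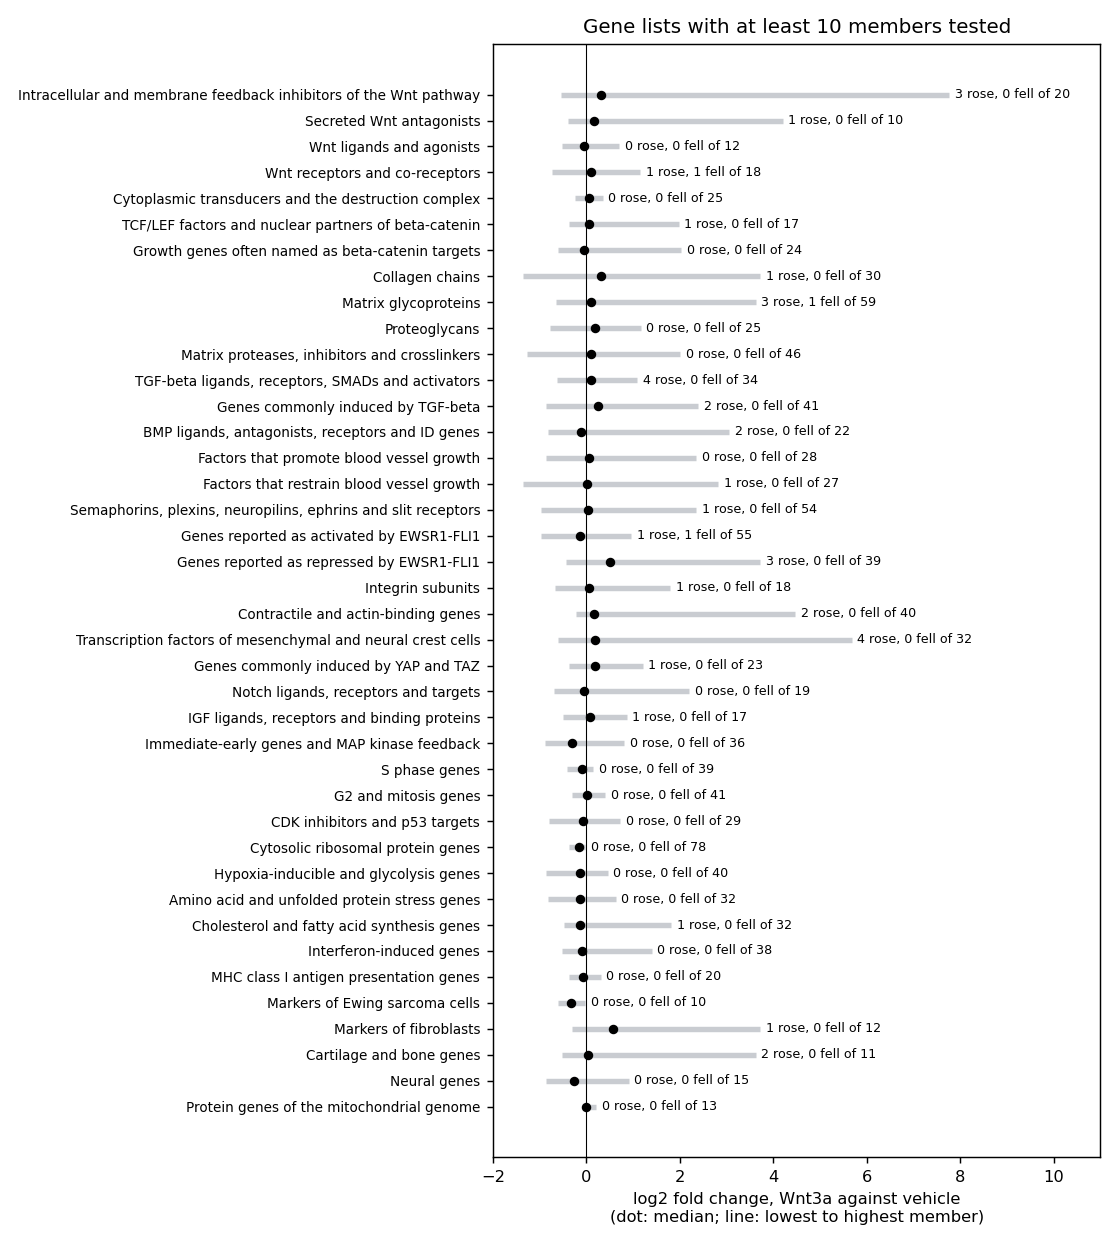
Log2 fold change of the members of each gene list with at least 10 members tested. Dots are medians, grey lines run from the lowest to the highest member, and the counts give members past the threshold. The highest medians of the lists shown are those of fibroblast markers (0.58) and of genes repressed by EWSR1-FLI1 (0.50), 2 lists that share COL6A3.

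All 5 genes that fell changed by less than 2-fold. TRPM4, a cation channel, went from 81.6, 85.4 and 84.4 to 49.0, 55.2 and 55.2 CPM (log2 fold change -0.66, SE 0.0844, adjusted p = 0.0249, up to 0.146). MLC1, a membrane protein known from glial cells, went from 224, 191 and 228 to 106, 113 and 136 CPM (log2 fold change -0.86, adjusted p = 0.0358, up to 0.178). NRG1, a ligand of ERBB receptors, went from 25.8, 24.9 and 29.9 to 16.0, 15.03 and 16.2 CPM (log2 fold change -0.77, adjusted p = 0.038, up to 0.189). MGP, a matrix protein that restrains mineralisation, was at 475, 461 and 430 CPM in vehicle and 296, 258 and 316 in Wnt3a (log2 fold change -0.65, adjusted p = 0.0432, up to 0.206). FZD4, described above, was the fifth.

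The largest fitted rise belonged to KRT81, a hair keratin (chr12:52285913-52291534). It had 1 count over the vehicle libraries and 553 over the Wnt3a libraries, at 4.13, 4.45 and 4.99 CPM in the latter, and a depth-scaled ratio of 495 (exact 95% interval 88.4 to 19600, counting error only). Its adjusted p was 0.00145 and it was called whichever library was left out. Near-identical hair keratin genes lie beside it, so the gene that gave these reads is uncertain. Of 6 epithelial markers tested 0 passed with edgeR or DESeq2, 1 had an unadjusted p under 0.05, and KRT18 was at 1.22, 1.18 and 1.44 against 0.852, 1.07 and 0.724 CPM.

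Further called genes lie outside the naming rule and are named because of their values. PDE7B, which breaks down cyclic AMP, rose from 4.15, 4.25 and 4.19 to 12.3, 10.5 and 13.1 CPM (log2 fold change 1.51, adjusted p = 0.0144). PDE3A, another phosphodiesterase, rose from 0.0298, 0.0772 and 0.0545 to 0.985, 1.002 and 1.09 CPM (log2 fold change 4.15, adjusted p = 0.0159). PENK, the precursor of enkephalin peptides, rose from 77.2, 67.2 and 76.1 to 182, 168 and 147 CPM (log2 fold change 1.17, adjusted p = 0.00975). ATP9A, a lipid flippase of endosomes, rose from 77.2, 80.2 and 79.1 to 148, 151 and 143 CPM with very little spread in either group (log2 fold change 0.90, SE 0.0732, adjusted p = 0.00687). AHRR, the repressor of the aryl hydrocarbon receptor, rose from 7.10, 7.49 and 7.41 to 15.1, 18.1 and 18.6 CPM (log2 fold change 1.24, adjusted p = 0.0159). MT1X, a metallothionein with close copies in the genome, rose from 5.22, 6.66 and 5.80 to 20.4, 12.8 and 15.9 CPM (log2 fold change 1.47, adjusted p = 0.0297). With a library left out, the adjusted p of these 6 genes reached 0.0873 for PENK and ATP9A, 0.118 for PDE7B and AHRR, 0.119 for PDE3A and 0.191 for MT1X.

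Some called genes lie side by side. TSHZ1 has ZADH2 1407 bases away on the opposite strand, and ZADH2, which encodes a prostaglandin reductase, rose from 6.11, 6.48 and 6.24 to 11.3, 13.4 and 12.8 CPM (log2 fold change 0.99, adjusted p = 0.0297, up to 0.193). PARVG and KIAA1644 are 24134 bases apart on chromosome 22, and KIAA1644 rose from 8.02, 7.72 and 9.75 to 21.5, 21.4 and 23.0 CPM (log2 fold change 1.37, adjusted p = 0.0101, up to 0.0941). TGFBI and SMAD5 are 69027 bases apart on chromosome 5. PENK and the non-coding LINC00968 are 49512 bases apart on chromosome 8, and LINC00968 rose from 0.805, 1.03 and 0.545 to 7.80, 8.04 and 2.99 CPM (log2 fold change 2.98, adjusted p = 0.0417, up to 0.24). FOXQ1 and FOXC1 are 295224 bases apart on chromosome 6 with 1 coding gene between them, FOXF2, at 6.32, 6.64 and 6.29 against 7.40, 9.93 and 10.3 CPM (adjusted p = 0.368). In these 5 pairs, within 500 kb of each other, both members rose, as did 74 of the 79 called genes from which the pairs were drawn. How often called genes would be neighbours without a link between them was not tested.

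The tables also give the mean length of each gene's transcripts in bases, weighted by their estimated shares, so a change shows a shift between isoforms. Of 11578 genes with at least 50 counts in every library, 0 (0.0%) passed an adjusted p under 0.05 with limma, and 524 had an unadjusted p under 0.05. GFOD1, which itself rose in level from 9.99, 11.8 and 10.8 to 26.5, 34.2 and 25.1 CPM (adjusted p = 0.0159, up to 0.119), had the largest shift of those with the smallest p. Its length was 3774, 3858 and 4094 bases in vehicle and 2681, 2528 and 2480 in Wnt3a, without overlap (log2 change -0.61, SE 0.0452, adjusted p = 0.153). MED13, a subunit of the Mediator kinase module, was at 9758, 9619 and 9854 against 7288, 7007 and 7481 bases with the same adjusted p. Which isoform gained was not measured here. The naming rule does not cover GFOD1 and MED13, which were picked with their values in view.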

How the data were processed

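RNA of 6 TC32 libraries was compared, 3 of vehicle and 3 of Wnt3a. Per the submitters' processing notes, the authors used CASAVA 1.8.2, Trimmomatic 0.36, STAR 2.5.2a and RSEM 1.2.31 with hg38. No source used here gives the annotation release or strand setting, so a gene and its antisense partner may share reads. Per the file headers, the deposited tables hold expected counts, TPM and transcript lengths per gene. RSEM shares out reads that fit several genes, which makes near-identical copies uncertain. Expected counts were rounded, 45 pseudoautosomal rows were added to their partners, and names and coordinates came from GENCODE 29, in which 57895 of 58233 IDs were found. Genes were kept by filterByExpr, scaled by TMM and tested by the quasi-likelihood F test of edgeR 4.0.16 (R 4.3.3) on the 6 libraries, 2-sided, with Benjamini-Hochberg adjustment over 17524 genes and a threshold of 0.05. The common biological coefficient of variation was 20%. SE is the log2 fold change over the square root of F. Ratios with 1 to 3 vehicle counts carry exact 95% intervals, and 0 counts a floor of 3, both for counting error only. Lengths were tested with limma 3.58.1, and the test code was checked on simulated data. TPM made by the authors entered an alternative test with limma-trend. Other alternatives used DESeq2 1.42.0, voom, other scalings and filters, sva 3.50.0, a replicate block and each library left out.

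Named genes were the 15 largest rises and falls with a mean of at least 1 CPM and no overlap, a panel, and up to 4 genes per list with the smallest p. EGR1, ETV5, PAX7, GOLGA8A, SOX9 and the genes said to lie outside the rule were named after their values were seen, as were ZADH2, KIAA1644 and those of the closing section. The members, lists and tests were chosen with earlier results of these data known. No main result uses the replicate number as a block. Some genes that the naming rule selects are not reported here.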

Additional observations from a re-analysis of the deposited data

How the results depend on the processing

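The 79 genes called became 78 with RLE factors, 78 with library totals, 77 with at least 1 CPM in 3 libraries, 76 with unrounded counts and 61 with voom. They became 247 with every gene that had a count, 379 with DESeq2, 41 with log2(TPM + 1), 44 with log2(TPM + 0.1), 24 with a mean TPM of at least 1, 707 with a surrogate variable from svaseq and 712 with the library set as a block, which was added after seeing the data. Leaving out a library gave 4 to 67. The 43 genes changed at least 2-fold became 109 with every gene kept, 105 with DESeq2, 25 with log2(TPM + 1), 16 with the TPM minimum, 135 with the surrogate variable, 135 with the library set as a block, and 4 to 46 with a library left out. The number of genes with a changed transcript length was 0 in all fits, with 438 to 702 unadjusted. No gene called in the main comparison changed sign under any alternative run, which groups without overlap nearly fix in advance. Of the 79, 34 were called with log2(TPM + 1). The cause of these differences was not tested.

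With the replicate number as a block 248 genes were called, 87 of them at least 2-fold, and 0 changed in length. The deviations of same-numbered libraries correlated by 0.007, 0.425 and 0.375 for numbers 1, 2 and 3. Among the Wnt3a libraries, vehicle 2 and vehicle 3 correlated best with the one of their own number, which is also in their library set. Vehicle 1 correlated best with Wnt3a 3 (0.222). Whether the numbers mark paired libraries cannot be told from these values. Depth limits the genes with 0 to 3 vehicle counts, whose intervals are wide.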

Other observations

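A further group of genes passed the edgeR test once the library sets were taken into account. Of the 712 genes called with the set as a block, 50 outside the 79 changed at least 2-fold in the same direction within both sets. A mean of at least 1 CPM and a symbol that is not a clone name were also required. Wnt3a 3 is the only Wnt3a library of its set, and vehicle 2 the only vehicle library of the other. Of the 50 genes, 40 were higher and 10 lower, and in 10 of them the groups as wholes overlapped. The sets were defined from these libraries and the fit was added after seeing them, so these are values to look at again and not calls of the comparison. CXCL14, a chemokine, was at 8.98, 1.36 and 7.92 CPM in vehicle and at 14.7, 13.4 and 99.8 CPM in Wnt3a, and its adjusted p went from 0.374 to 8.98e-07. GREM1, a BMP antagonist, was at 28.2, 10.6 and 24.0 against 24.6, 28.96 and 69.6 CPM. POSTN, periostin of the matrix, was at 3.82, 10.4 and 2.70 against 28.2, 23.2 and 9.94 CPM, and PMP22, a membrane protein of myelin, at 6.68, 9.21 and 4.55 against 29.1, 24.7 and 16.5 CPM. LMO4, a transcriptional cofactor, was at 83.5, 61.3 and 88.7 against 140, 145 and 188 CPM. Among those lower with Wnt3a, A4GALT, a glycosyltransferase, was at 20.1, 13.1 and 21.4 against 6.18, 6.50 and 9.57 CPM, and FOLR2, a folate receptor, at 1.61, 3.19 and 2.07 against 0.692, 0.350 and 0.482 CPM. In CXCL14, GREM1 and LMO4 Wnt3a 3 was the highest of all 6 libraries, and in POSTN and PMP22 it was the lowest of the Wnt3a libraries.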
